A study of Homo sapiens with 6 samples.

Results

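The genes described here encode the heat shock chaperones of the cytosol, nucleus and mitochondria with their helpers, and were taken from the table by gene symbol. They are 47 genes of the 20388 in the expression table: the HSP70, HSP110, HSP90 and small HSP families, the mitochondrial chaperonin, 2 heat shock factors, the BAG exchange factors, co-chaperones of HSP90, and subunits of the chaperonin TRiC and of prefoldin. All 47 were in the table, and 46 had a mean of at least 1 FPKM (sequenced fragments relative to transcript length in kilobases and to the total of the library) and were tested. HSPA2 missed that level, and HSPA6 reached it through the treated group only. DNAJ co-chaperones and chaperones of the endoplasmic reticulum lumen were left out by the rule, although HSPA13, which is on the list, is itself a microsomal HSP70.

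The series holds 6 RNA libraries of MHCC-97H, an established human hepatocellular carcinoma line recorded as wild type. For 3 of them the cells had been exposed for 24 h to GK921, which inhibits the enzyme transglutaminase 2 (TGM2), at 2 µM, and for the other 3 to the solvent DMSO for 24 h. All 6 come from a single line, and no source used here says that the 3 libraries of a group were separate cultures, so each p-value is set against a spread that may be technical. The comparison asks how exposure to the inhibitor changed the transcriptome. TGM2 mRNA itself was at 42.6 ± 0.345 FPKM in GK921 libraries and 42.1 ± 0.0265 FPKM in DMSO libraries (SD, n = 3, as for every mean below), with no call by limma on the deposited values (adjusted p = 0.71). An enzyme inhibitor need not change it, so this checks no label.

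Chaperones bind unfolded protein and release it by cycles of ATP use. HSP70 takes up nascent or damaged chains, nucleotide exchange factors such as the BAG and HSP110 proteins make it let go, HSP90 and its co-chaperones finish kinases and receptors, and TRiC encloses actin and tubulin handed over by prefoldin. When unfolded protein builds up, the transcription factor HSF1 is released from chaperones and switches on the inducible members, while constitutive members such as HSPA8 serve growing cells throughout. Hepatocellular carcinoma cells commonly carry high levels of several of these proteins.

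HSF1 binds heat shock elements, alternating GAA and TTC units with 2 free bases between them, which gives the promoters of these genes a visible signature. RefSeq (GRCh38.p14) gave windows from 250 bases before to 50 bases after a start site for 40 of the 47 genes, 54 windows in all; CRYAB, HSPA14, HSPB11, HSF1, BAG4, FKBP4 and PFDN2 were not among them. The pair GAANNTTC was found in 16 of these windows (29.6%), against 6.77% of all 35116 windows in the table. TTCNNGAA was found in 10 (18.5%), against 7.74% of all. Both read the same on either strand and can overlap. Windows can overlap too, so the same GAANNTTC pair is counted more than once for PFDN6 and for HSPA1L with HSPA1A. A run of 3 units (GAANNTTCNNGAA or TTCNNGAANNTTC, either strand, each holding both pairs) was found in 6 member windows (11.1%), against 0.49% of all. Those 6 belong to HSPA6, HSPA8, HSP90AA1, HSP90AB1, HSPD1 and CHORDC1. A match is only a run of letters, and binding was not measured.

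The windows below are shown because their genes carry the main contrasts, the first 3 with transcripts higher after GK921, HSPA8 and HSPD1 lower, and HSPA13 with a large rise and neither pair. Capitals mark GAANNTTC and TTCNNGAA, merged where they overlap. HSPA6 is at chr1:161524290-161524589 (plus strand), HSPA1A at chr6:31815293-31815592 (plus), HSPA1B at chr6:31827488-31827787 (plus), HSPA8 at chr11:123062087-123062386 (minus), HSPD1 at chr2:197499791-197500090 (minus, the one of its 2 windows with matches) and HSPA13 at chr21:14383097-14383396 (minus).
HSPA6: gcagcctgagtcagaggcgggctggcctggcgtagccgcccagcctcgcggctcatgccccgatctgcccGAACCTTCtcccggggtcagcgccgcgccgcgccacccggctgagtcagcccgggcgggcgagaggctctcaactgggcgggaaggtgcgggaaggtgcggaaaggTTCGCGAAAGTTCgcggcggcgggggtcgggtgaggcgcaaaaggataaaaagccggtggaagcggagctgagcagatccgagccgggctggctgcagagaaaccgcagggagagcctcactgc
HSPA1A: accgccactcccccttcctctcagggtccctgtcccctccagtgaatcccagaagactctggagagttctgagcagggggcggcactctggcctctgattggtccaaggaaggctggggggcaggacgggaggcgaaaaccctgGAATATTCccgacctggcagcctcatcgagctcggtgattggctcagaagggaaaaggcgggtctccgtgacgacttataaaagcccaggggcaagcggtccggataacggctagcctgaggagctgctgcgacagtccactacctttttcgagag
HSPA1B: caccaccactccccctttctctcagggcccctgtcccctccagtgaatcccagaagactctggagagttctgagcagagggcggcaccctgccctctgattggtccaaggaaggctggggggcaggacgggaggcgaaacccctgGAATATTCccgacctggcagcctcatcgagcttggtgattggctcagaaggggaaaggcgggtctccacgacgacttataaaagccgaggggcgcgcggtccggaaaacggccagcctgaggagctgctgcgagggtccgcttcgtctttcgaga
HSPA8: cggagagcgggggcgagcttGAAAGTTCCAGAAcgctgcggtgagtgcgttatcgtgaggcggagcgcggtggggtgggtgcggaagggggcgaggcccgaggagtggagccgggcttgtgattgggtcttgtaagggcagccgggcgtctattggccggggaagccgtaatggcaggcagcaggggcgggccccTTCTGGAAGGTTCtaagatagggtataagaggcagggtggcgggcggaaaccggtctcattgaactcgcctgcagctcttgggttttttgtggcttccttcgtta
HSPD1: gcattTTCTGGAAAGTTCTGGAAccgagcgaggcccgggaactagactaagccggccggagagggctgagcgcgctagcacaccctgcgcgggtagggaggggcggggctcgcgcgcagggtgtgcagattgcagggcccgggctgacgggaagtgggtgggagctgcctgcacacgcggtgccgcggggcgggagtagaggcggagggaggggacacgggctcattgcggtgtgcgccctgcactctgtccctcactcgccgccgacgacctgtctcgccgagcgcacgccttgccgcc
HSPA13: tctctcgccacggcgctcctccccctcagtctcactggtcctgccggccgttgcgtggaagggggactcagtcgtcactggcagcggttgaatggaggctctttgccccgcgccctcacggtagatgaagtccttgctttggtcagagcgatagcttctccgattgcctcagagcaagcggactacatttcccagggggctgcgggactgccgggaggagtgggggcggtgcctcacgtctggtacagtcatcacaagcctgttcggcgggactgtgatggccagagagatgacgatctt

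The HSPA1A and HSPA1B windows differ by 24 edits in 300 bases and each holds a single GAANNTTC pair. The HSPA6 and HSPA8 windows hold a run of 3 units close to the start, from -74 to -62 in HSPA6 and from -55 to -43 in HSPA8, positions being counted from the start site. Each kind of match was found among genes of both directions. A GAANNTTC pair was present for 7 of the 13 genes with a window that were higher after GK921 and for 7 of the 19 that were lower. A TTCNNGAA pair was present for 3 of the 13 and for 7 of the 19. Of the genes with a 3-unit run 1 was higher and 5 were lower. The 1 higher gene is HSPA6, also among the 13, which reached the level for testing through GK921 only. Among the 5, HSP90AA1 and CHORDC1 were not called in a test against a 1.2-fold change. Over all tested genes 46.8% were called higher and 29.2% lower, and these counts were not tested. The letters TATAAA were found in 6 member windows (11.1%), near the 11.5% of all windows, and began at -30 in HSPA1A and -29 in HSPA1B but at -89 or farther in the other 4. HSPA1L and HSPA1A start on opposite strands and their windows share 241 bases, the TATAAA and the GAANNTTC pair among them. That pair counts for both genes above. The stress element CCAAT, 9 free bases, CCACG was in no member window and in 0.0769% of all, and CCAAT alone was in 27.8% of member windows, against 34.6% of all.

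The chaperone genes moved in both directions after GK921. HSP70 and small HSP genes made up 9 of the rises, while the HSP90 genes, most of their co-chaperones, the mitochondrial chaperonin and TRiC fell. Of the 46 tested, 16 were higher after GK921 (34.8%), HSPA6 among them, 22 were lower (47.8%) and 8 were not called, at a limma adjusted p under 0.05. Over all 11573 tested genes, 46.8% were called higher and 29.2% lower, so 75.9% were called in all. The median log2 change of the members was -0.07, against 0.16 for all tested genes. Calls of at least 2-fold on the log2(FPKM + 1) scale numbered 8 among the members, and such calls made up 16.1% of all tested genes. GK921 and DMSO values did not overlap for 40 of the 46 members; over all tested genes this held for 78%. With libraries rescaled by median ratios, which removes most of the shift of 0.16, 14 members were higher and 26 lower, and the share of all calls that were rises was 49.7%, against 61.6% as deposited.

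**Figure D1:**
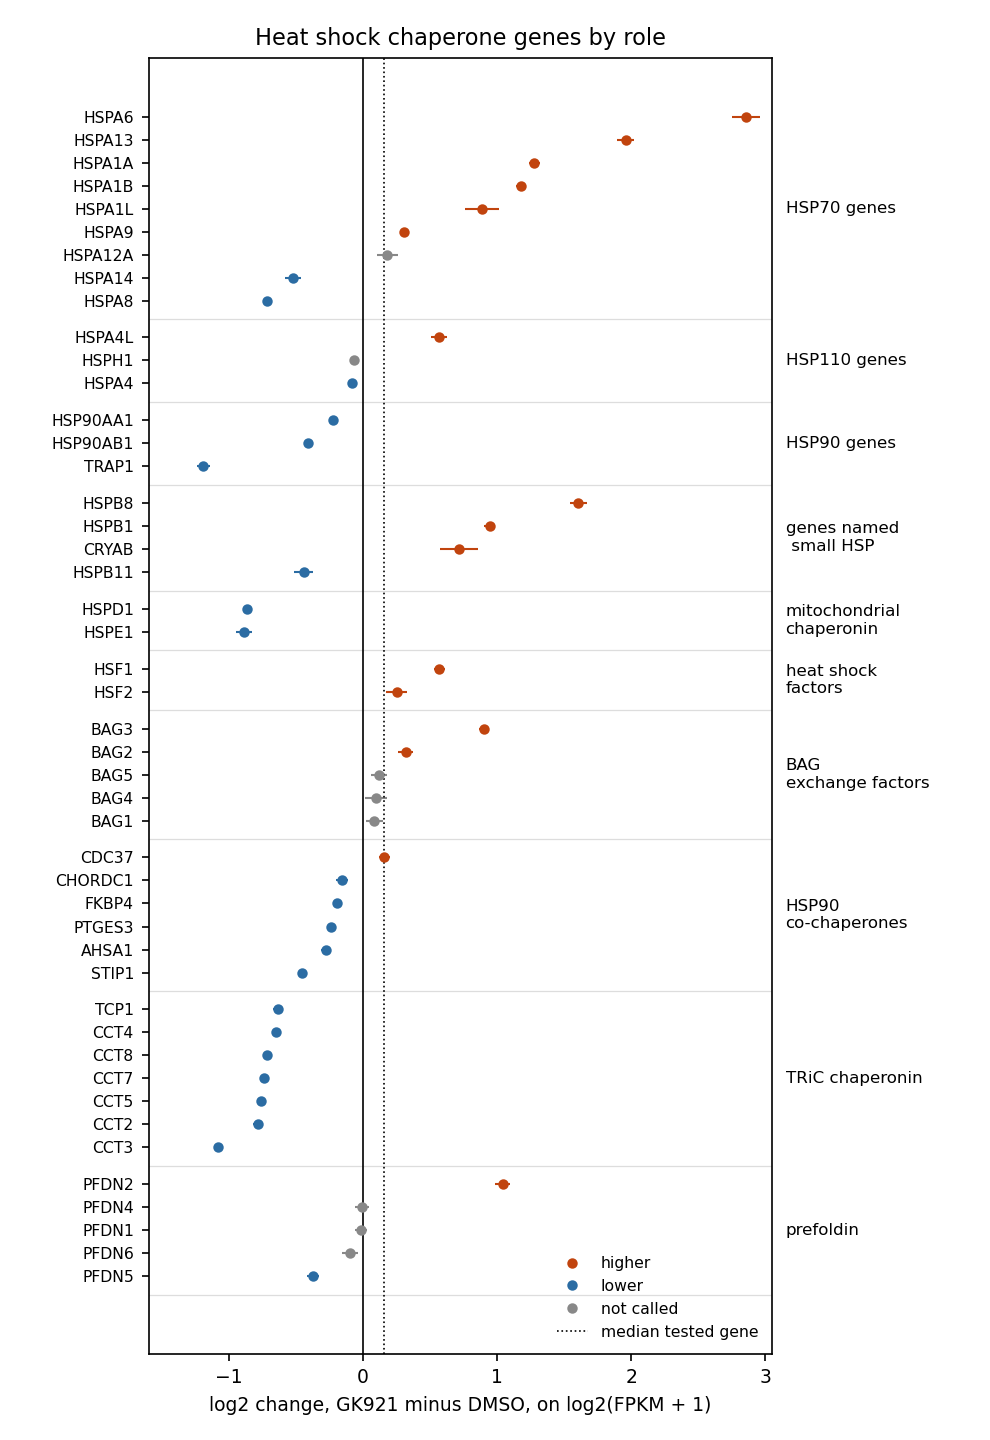
Log2 change (GK921 minus DMSO, on log2(FPKM + 1)) of the 46 tested chaperone genes, grouped by role, with bars of 1 SE. Points are coloured by call, and the dotted line is the median tested gene at 0.16. TRiC, HSP90 and mitochondrial chaperonin genes lie left of 0, and the largest rises are in the HSP70 and small HSP groups.

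Calls differed with level. Of the 27 members above 100 FPKM on average over the 6 libraries, 19 were lower, 6 higher and 2 not called. Of the 19 tested members at or below that level, 3 were lower, 10 higher and 6 not called. Over all tested genes, 49.6% of the 1388 above 100 FPKM were called lower and 37.7% higher, against 26.4% lower and 48% higher among the others. The level of 100 FPKM and this split were chosen after values had been seen, and no test was made of it. Together the members took 1.22% to 1.25% of the summed FPKM of a GK921 library and 1.5% to 1.51% of that of a DMSO library. In bulk RNA, fewer cells of a type and less RNA per cell cannot be told apart.

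**Figure D2:**
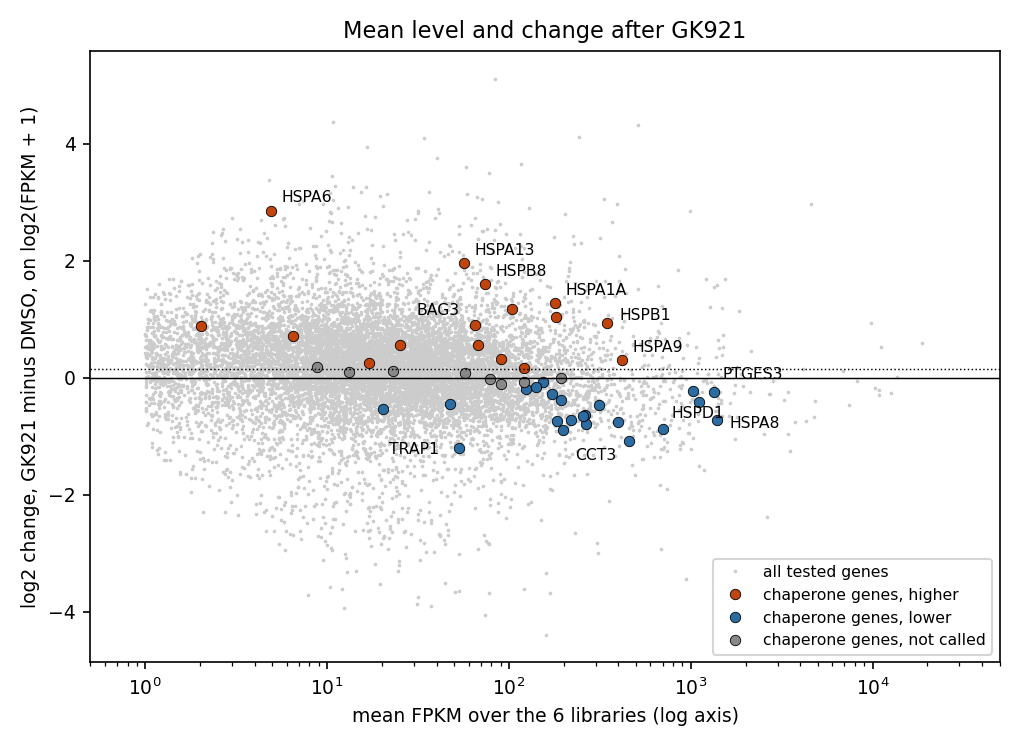
Mean FPKM over the 6 libraries (log axis) against the log2 change after GK921 for all tested genes (grey) and the chaperone genes (coloured by call). Of the 27 members above 100 FPKM, 19 were called lower, HSPA8, HSPD1 and CCT3 among them. Another 6 of the 27 were called higher and lie above 0, HSPA9, HSPB1, PFDN2 and HSPA1A among them. HSPA6, HSPA13 and HSPB8, at lower means, also lie above 0.

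The libraries form 2 compact groups, with correlations of 0.993 to 0.995 within a group and 0.914 between groups on the log2 scale. Steps between low values put the depths, relative to the deepest library, at 0.768 to 0.864 in GK921 and 0.871 to 1 in DMSO, and read totals are unknown here. Members varied little between libraries, with a median coefficient of variation of 3.3% in GK921 and 3.04% in DMSO, against 6.01% and 5.63% for all tested genes. Above 100 FPKM were 27 of the 46 tested members but 1388 of all 11573 tested genes, and the spread was not compared at equal level. The liver label was checked against 12 hepatocyte and liver tumour markers. Of these, HNF4A alone reached 1 FPKM, APOA2 and GPC3 were listed at 0 in every library, and ALB was at most 0.14 FPKM; the list summed to 8.42 to 11.4 FPKM in GK921 and 11.4 to 12.8 FPKM in DMSO. Epithelial keratins were high. The 4 epithelial markers summed to 1862 to 1923 FPKM in GK921 and 2374 to 2379 FPKM in DMSO, nearly all from KRT8 and KRT18. EPCAM was at most 0.96 FPKM and CDH1 at most 3.78 FPKM. The 5 fibroblast markers summed to 22.3 to 28.3 FPKM in GK921 and 48.4 to 52.4 FPKM in DMSO, nearly all from LUM and DCN, with COL1A1 at most 0.02 FPKM. The 4 leukocyte markers, at 93.2 to 109.7 and 103.9 to 112.6 FPKM, came almost wholly from CD68, with PTPRC at most 0.68 FPKM. The 4 endothelial markers summed to 6.2 to 7.85 and 5.23 to 5.77 FPKM, with CDH5 listed at 0 in every library. The part of these differences in the results was not tested.

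The HSP70 genes moved in both directions, with 6 of 9 tested higher, 2 lower and 1 not called. HSPA6, a strictly inducible HSP70 that is almost silent in unstressed cells, had the highest ratio between the groups. It was at 9.01, 9.61 and 9.59 FPKM in the GK921 libraries and at 0.47, 0.45 and 0.39 FPKM in the DMSO libraries, which do not overlap. The ratio of the means was 21.5. The log2 change was 2.86 with the pseudocount of 1, 4.15 with 0.1 and 1.41 with 5, and no p is given since the gene reached the level for testing through GK921 only. The gene has a single exon at chromosome 1, 161524540 to 161526910 (GRCh38, as all positions below, from GENCODE 29), and remained a minor transcript, as its mean of 9.4 FPKM after GK921 shows.

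HSPA1A and HSPA1B, the main stress-inducible HSP70 genes, lie 9788 bases apart on chromosome 6 (31815464 to 31817946 and 31827735 to 31830255), each with 1 exon. Their longest open reading frames differ at 4 of 1926 positions (99.8% identical), so reads from one can be counted for the other and the split between them is uncertain. HSPA1A was at 260.99, 243.22 and 254.94 FPKM in GK921 and 101.52, 109.33 and 100.96 FPKM in DMSO, 2.43-fold higher. HSPA1B was at 150.64, 142.21 and 142.83 FPKM in GK921 and 64.99, 63.2 and 63.24 FPKM in DMSO, 2.28-fold higher. No GK921 library of either gene overlapped a DMSO library. Their sum, which does not depend on the split, was 398.3 ± 13.1 FPKM in GK921 and 167.7 ± 4.3 FPKM in DMSO (2.37-fold, log2 change 1.24 ± 0.034 SE, limma adjusted p = 5.00e-09). The transcript AL671762.1 covers 36.5% of the HSPA1B exon bases on the same strand. How reads matching several genes were treated is not known here, so the sum carries some uncertainty too. HSPA1L, best known from testis and starting 398 bases from HSPA1A on the other strand, was low in both groups, at 2.91 ± 0.215 FPKM in GK921 and 1.12 ± 0.174 FPKM in DMSO, and rose (limma adjusted p = 0.000189). Its reading frame is 81.4% identical to that of HSPA1A. HSPA2, also best known from testis, was at 0.95, 1.27 and 1.19 FPKM in GK921 and 1.07, 0.5 and 0.98 FPKM in DMSO, and was not tested.

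HSPA8, the constitutive HSP70 and the most abundant member in DMSO, went the other way. It stood at 1053.77, 1058.33 and 1049.02 FPKM in GK921 against 1743.38, 1715.38 and 1748.65 FPKM in DMSO. All GK921 values lay below all DMSO values, by 1.65-fold on the means (log2 change -0.72 ± 0.020 SE, limma adjusted p = 4.88e-09). GENCODE 29 lists 17 pseudogenes named after HSPA8, which may share its reads. The sum of the 6 cytosolic HSP70 genes was therefore lower after GK921, at 1465 ± 11.1 FPKM against 1906 ± 14 FPKM in DMSO. Its make-up shifted: HSPA1A, HSPA1B and HSPA6 together made up 27.8% ± 0.679 of it in GK921 libraries and 8.83% ± 0.292 in DMSO libraries.

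**Figure D3:**
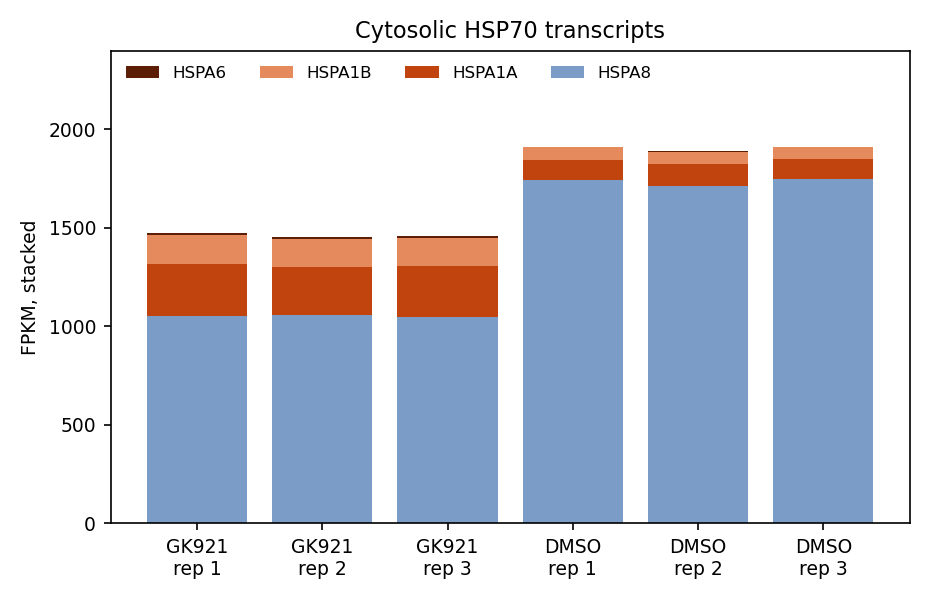
Stacked FPKM of HSPA8, HSPA1A, HSPA1B and HSPA6 in each library, the 3 GK921 libraries left of the 3 DMSO libraries. The bars are shorter after GK921 because HSPA8 is lower, while the HSPA1A and HSPA1B segments are taller.

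Other HSP70 relatives also divided. HSPA13, the microsomal member, was at 86.39, 92.89 and 92.11 FPKM in GK921 and 24.06, 23.27 and 20.44 FPKM in DMSO, 4-fold higher with no overlap (log2 change 1.96 ± 0.065 SE, limma adjusted p = 1.40e-08). That size of rise sits beside HSPA5 (BiP), the main luminal HSP70, which was at 8127 ± 113 FPKM in GK921 and 1038 ± 13.3 FPKM in DMSO. HSPA9, the mitochondrial HSP70 that pulls imported proteins into the matrix, rose 1.24-fold to 463.6 ± 9.57 FPKM, against 375 ± 5.11 FPKM in DMSO. Its log2 change of 0.31 was 0.15 above that of the median gene. It was not called in a limma test against a 1.2-fold change (adjusted p = 0.134). HSPA14, which works with the ribosome, was 1.46-fold lower. HSPA12A, a distant relative, was at 9.38 ± 0.422 FPKM in GK921 and 8.16 ± 0.469 FPKM in DMSO and was not called (limma adjusted p = 0.0618), except without the intensity trend (adjusted p = 0.0279).

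The HSP110 proteins, large HSP70 relatives that act as nucleotide exchange factors and hold unfolded chains, changed little apart from HSPA4L. HSPA4L was at 30.78, 30.96 and 28.92 FPKM in GK921 and 21.24, 19.2 and 19.84 FPKM in DMSO, 1.5-fold higher with separate groups. HSPA4, the most abundant of the 3, was at 149.36, 149.84 and 149.23 FPKM in GK921 and 158.43, 155.61 and 159.92 FPKM in DMSO. Its groups were separate but the change was -0.08 on the log2 scale (limma adjusted p = 0.0318), and the call was lost without each library in turn except the second DMSO one, at adjusted p-values of 0.054 to 0.0989. HSPH1, inducible in heat shock, was at 118.8 ± 3.35 FPKM in GK921 and 124.3 ± 2.24 FPKM in DMSO and was not called (limma adjusted p = 0.121), although with median-ratio rescaling it was lower by -0.23 (adjusted p = 0.000338), and with upper-quartile rescaling by -0.16 (adjusted p = 0.0031).

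All 3 HSP90 genes were lower. TRAP1, the mitochondrial HSP90, was at 32.11, 32.48 and 31.86 FPKM in GK921 and 73.7, 79.44 and 71.37 FPKM in DMSO. This was the largest fall among the members, 2.33-fold with no overlap (log2 change -1.19 ± 0.049 SE, limma adjusted p = 5.17e-08). DNASE1 lies across 29.3% of its exon bases on the other strand, but was low, at 2.75 and 2.68 FPKM. HSP90AB1, the constitutive cytosolic HSP90, was at 949.48, 954.62 and 951.06 FPKM in GK921 and 1270.42, 1259.29 and 1261.12 FPKM in DMSO, 1.33-fold lower. HSP90AA1, the inducible cytosolic HSP90, was 1.17-fold lower at 947.7 ± 15 FPKM, against 1108 ± 10.7 FPKM in DMSO (log2 change -0.23). It lost its call with quantile normalization (log2 change -0.01, limma adjusted p = 0.762) and in a test against a 1.2-fold change. The ratio of HSP90AA1 to HSP90AB1 was 0.98, 0.999 and 1.01 in GK921 libraries and 0.88, 0.871 and 0.88 in DMSO libraries. Unlike HSPA1A, then, the inducible HSP90 gene had no call of a rise under the settings tried.

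Among the genes named as small heat shock proteins, which hold unfolded protein without using ATP, 3 of 4 rose. HSPB8, the partner of BAG3 in selective autophagy of damaged protein, was at 116.38, 110.73 and 106.99 FPKM in GK921 and 38.85, 32.94 and 36.17 FPKM in DMSO, 3.09-fold higher (log2 change 1.61 ± 0.062 SE, limma adjusted p = 3.62e-08). HSPB1 (HSP27), the most abundant of them, was at 466.17, 436.12 and 464.67 FPKM in GK921 and 223.13, 243.11 and 243.51 FPKM in DMSO, 1.93-fold higher. Neither gene had overlapping groups. CRYAB, best known from lens and muscle, was low at 8.26 ± 0.866 FPKM in GK921 and 4.7 ± 1.09 FPKM in DMSO, and was called higher (limma adjusted p = 0.00164). HSPB11 was at 40.01, 44.39 and 35.96 FPKM in GK921 and 56.41, 53.27 and 54.31 FPKM in DMSO, 1.36-fold lower; despite its name its product is IFT25, part of the transport system of cilia.

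Beside HSPB8, the exchange factor gene BAG3 was at 86.8, 82.47 and 87.1 FPKM in GK921 and 45.26, 45.48 and 45.09 FPKM in DMSO. This was 1.89-fold higher with separate groups (log2 change 0.90 ± 0.039 SE, limma adjusted p = 7.39e-08) and the largest change of the 5 BAG genes. BAG proteins share a domain that makes HSP70 release its nucleotide. BAG2, which inhibits the ubiquitin ligase CHIP, was at 95, 104.74 and 103.06 FPKM in GK921 and 84.23, 75.73 and 82.6 FPKM in DMSO, 1.25-fold higher. It was not called in a limma test against a 1.2-fold change (adjusted p = 0.287). RAB23 covers 42.7% of the exon bases of BAG2 on the opposite strand and was also higher, at 46.2 against 25.4 FPKM in DMSO; the strand setting of the counting is not known here, and without strand their reads cannot be told apart. BAG1, BAG4 and BAG5 were not called, at log2 changes of 0.08, 0.09 and 0.12, and their groups overlapped; without the second DMSO library BAG5 was called higher (0.17, limma adjusted p = 0.0398).

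HSF1, the master regulator of the inducible genes, is itself controlled mainly as a protein, yet its mRNA was higher. It was at 78.72, 80.41 and 82.96 FPKM in GK921 and 55.26, 52.6 and 54.55 FPKM in DMSO, with separate groups and a ratio of 1.49 (log2 change 0.57 ± 0.040 SE, limma adjusted p = 1.80e-06). HSF2, a related factor with roles in development, was at 18.5 ± 1.62 FPKM in GK921 and 15.4 ± 0.933 FPKM in DMSO. It was called higher (log2 change 0.25, limma adjusted p = 0.017), a call lost under each of the 3 rescalings by median ratio, upper quartile and quantiles (adjusted p = 0.316, 0.0919 and 0.278). Without the second DMSO or the second GK921 library the call was lost too (adjusted p = 0.0606 and 0.0604), as in a limma test against a 1.2-fold change (adjusted p = 0.804).

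**Figure D4:**
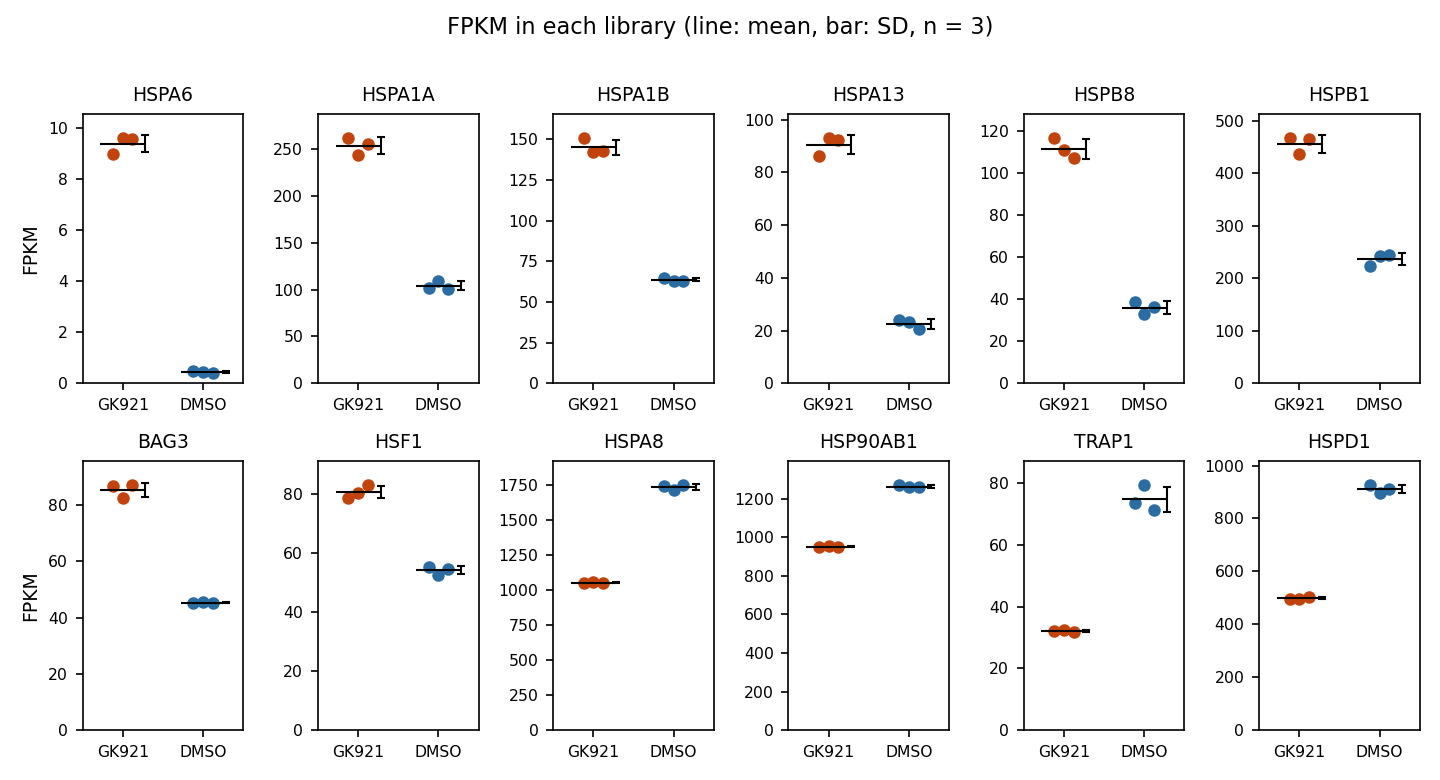
FPKM in each library for 12 chaperone genes, GK921 left of DMSO in every panel, with the mean as a line and the SD as a bar (n = 3). In each panel the 2 groups are separate: HSPA6, HSPA1A, HSPA1B, HSPA13, HSPB8, HSPB1, BAG3 and HSF1 are higher after GK921, and HSPA8, HSP90AB1, TRAP1 and HSPD1 lower.

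The co-chaperones that guide the HSP90 cycle mostly fell with it, 5 of 6 being lower, but of these 5 STIP1 alone was still called in a test against a 1.2-fold change. PTGES3 (p23), which closes the cycle and was the most abundant member after GK921, was at 1199.77, 1233.89 and 1281.72 FPKM in GK921 and 1460.91, 1430.61 and 1488.38 FPKM in DMSO, 1.18-fold lower. STIP1 (HOP), which passes clients from HSP70 to HSP90, was at 255.42, 265.23 and 267.43 FPKM in GK921 and 369.24, 362.95 and 351.47 FPKM in DMSO. At 1.37-fold lower it had the largest fall of the group (log2 change -0.46 ± 0.031 SE, limma adjusted p = 1.31e-06). AHSA1, which speeds up the ATPase of HSP90, FKBP4, which serves steroid receptors, and CHORDC1 were also lower, by log2 changes between -0.28 and -0.16. CDC37, which brings kinases to HSP90, was at 131.71, 129.43 and 121.77 FPKM in GK921 and 116.01, 116.82 and 109.84 FPKM in DMSO. Its rise (log2 change 0.16, limma adjusted p = 0.00734) equalled the shift of the median gene and was not called with median-ratio or upper-quartile scaling (log2 change -0.0068 and 0.066). CDC37 was not called in the test against a 1.2-fold change either.

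In mitochondria the matrix chaperones moved apart. HSPD1 (HSP60) and HSPE1 (HSP10), the barrel and the lid of the chaperonin cage, start on opposite strands of chromosome 2 and share a promoter region. HSPD1 was at 496.96, 496.64 and 501.82 FPKM in GK921 and 925.63, 894.51 and 911.59 FPKM in DMSO, 1.83-fold lower (log2 change -0.87 ± 0.023 SE, limma adjusted p = 4.14e-09). HSPE1 was at 134.26, 135.79 and 144.22 FPKM in GK921 and 244.13, 244.51 and 283.26 FPKM in DMSO, 1.86-fold lower (log2 change -0.89 ± 0.059 SE, limma adjusted p = 1.17e-06). The groups of both genes were separate, and their ratio was 3.61 ± 0.118 in GK921 and 3.56 ± 0.3 in DMSO, a difference smaller than the spread between libraries. GENCODE 29 lists 17 pseudogenes named after HSPD1 and 26 after HSPE1, and the 2 genes share 281 exon bases on opposite strands, so both counts carry some uncertainty. The ratio of HSPA9 to HSPD1 was 0.913, 0.935 and 0.942 in GK921 libraries and 0.406, 0.424 and 0.405 in DMSO libraries. In this ratio HSPD1 was 1.83-fold lower and HSPA9 1.24-fold higher.

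TRiC, the ring of 8 kinds of subunit that folds actin, tubulin and many other proteins, moved in one direction. All 7 listed subunits were lower, by 1.56-fold (TCP1) to 2.12-fold (CCT3), and none had overlapping groups. CCT3 was at 305.69, 289.32 and 291.28 FPKM in GK921 and 613.12, 628.1 and 633.69 FPKM in DMSO (log2 change -1.08 ± 0.030 SE, limma adjusted p = 5.08e-09). CCT5, next in level, was at 294.8 ± 5.07 FPKM in GK921 and 500.4 ± 8.55 FPKM in DMSO. The other subunits were 1.73-fold (CCT2), 1.67-fold (CCT7), 1.64-fold (CCT8) and 1.57-fold (CCT4) lower. ACAT2, which overlaps 8.05% of the exon bases of TCP1 on the opposite strand, was also lower, at 41.4 FPKM in GK921 and 91.8 FPKM in DMSO. The antisense transcript AC012640.4 covers 30.1% of the exon bases of CCT5, and no level is available for it. The 7 levels summed to 1495 ± 9.9 FPKM in GK921 and 2600 ± 14.5 FPKM in DMSO, and the highest subunit exceeded the lowest 2.09-fold to 2.23-fold in GK921 libraries and 2.67-fold to 2.72-fold in DMSO libraries. CCT6A, the 8th ubiquitous subunit, which was not among the members, was 2.02-fold lower, at 273.4 ± 9.15 FPKM in GK921 and 552.5 ± 13.4 FPKM in DMSO.

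Prefoldin, the 6-subunit clamp that hands actin and tubulin chains to TRiC, did not follow. Of 5 listed subunits 1 rose, 1 fell and 3 were not called. PFDN2, one of its beta subunits, was at 246.55, 246.38 and 244.53 FPKM in GK921 and 108.86, 129.57 and 119.65 FPKM in DMSO, 2.06-fold higher with no overlap (log2 change 1.04 ± 0.056 SE, limma adjusted p = 2.97e-07). PFDN5, an alpha subunit that also binds MYC, was at 168.95, 167.89 and 168.91 FPKM in GK921 and 205.55, 220.79 and 230.71 FPKM in DMSO, 1.3-fold lower (log2 change -0.37, limma adjusted p = 3.94e-05). PFDN1, PFDN4 and PFDN6 had log2 changes of -0.01, -0.01 and -0.10 with overlapping groups; with median-ratio rescaling each was called lower, at -0.18, -0.18 and -0.27. PFDN6 was also called lower with upper-quartile rescaling (-0.19, limma adjusted p = 0.0142) and without the third GK921 library (-0.17, adjusted p = 0.012). PFDN2 thus made up 31.8% ± 0.772 of the summed level of the 5 in GK921 and 16.9% ± 1.01 in DMSO. Next to it NIT1, whose exons share 26 bases with it on the other strand, was also called higher, at 44.8 and 17.2 FPKM. RGL2 covers 24.5% of the exon bases of PFDN6 on the other strand and was not called, at 11.5 FPKM in GK921 and 13.3 FPKM in DMSO. VBP1, the other alpha subunit and not among the members, was 1.17-fold lower.

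**Figure D5:**
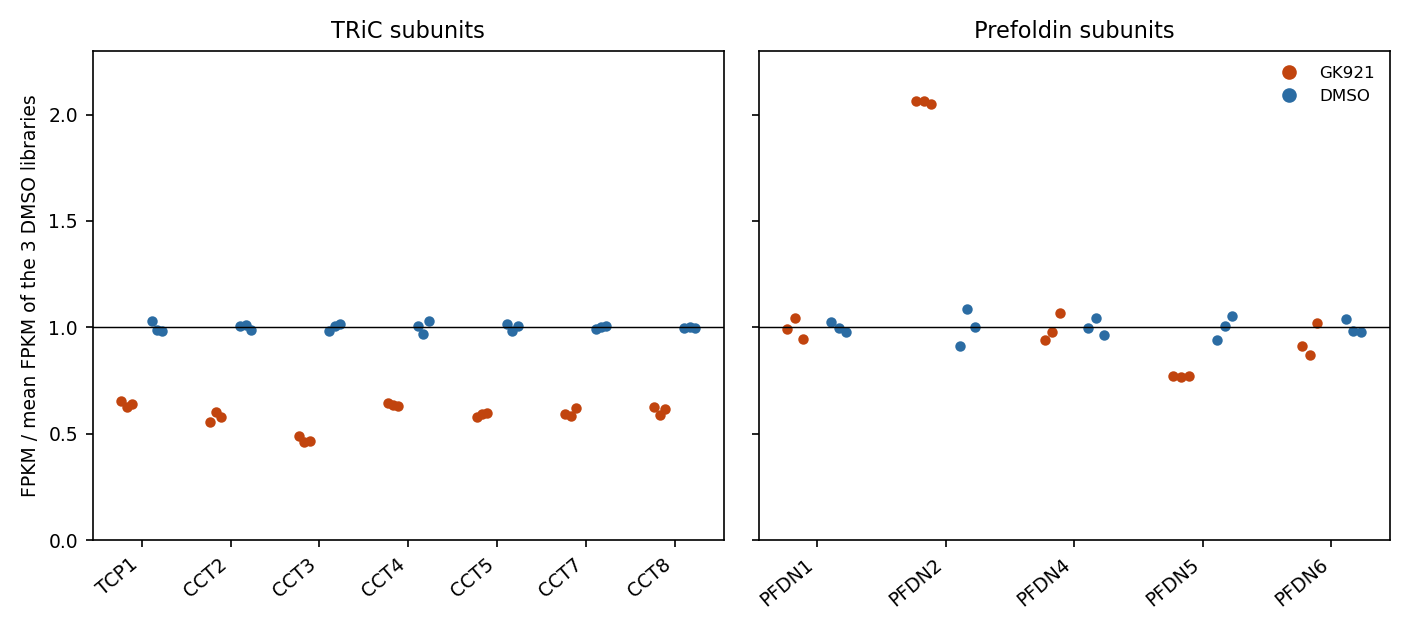
FPKM of each TRiC and prefoldin subunit in each library divided by the subunit's own mean over the 3 DMSO libraries, GK921 left of DMSO for each gene. The TRiC subunits lie together below 1 after GK921, while among the prefoldin subunits PFDN2 lies above 2, PFDN5 below 1 and the other 3 overlap their DMSO values.

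Genes that work with the members were called in both directions. Of 13 other textbook targets of heat shock factors, 9 were higher (69.2%), 2 lower (15.4%) and 2 not called. Their median log2 change was 0.66, against 0.16 for all tested genes. Calls over all tested genes, to be set beside this list and those below, were 46.8% higher and 29.2% lower. ZFAND2A, which regulates the proteasome under stress, rose 6.04-fold to 129.8 ± 1.47 FPKM, against 21.5 ± 0.157 FPKM in DMSO. CACYBP, a partner of the ubiquitin ligase SIAH1, and the HSP40 gene DNAJA1 were 1.47-fold and 1.14-fold lower. DNAJB1, the main inducible HSP40 and partner of HSPA1A, was at 382.7 ± 1.22 FPKM in GK921 and 167.4 ± 7.36 FPKM in DMSO. Among 7 tested of 14 other family members, 2 were higher (28.6%) and 3 lower (42.9%), with a median of -0.06. One of the 2, HSPB7, was at 2.13 FPKM in GK921 and 0.307 FPKM in DMSO, so it too was tested through GK921 only, and with a mean of at least 5 FPKM 1 was higher. HSF4, another heat shock factor gene, was 2.45-fold higher and HSBP1, which binds HSF1, 1.43-fold lower.

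Of 21 tested further co-chaperones of HSP70 and HSP90, 5 were higher (23.8%), 10 lower (47.6%) and 6 not called (median -0.12). FNIP2, an inhibitor of the HSP90 ATPase, rose 2.12-fold and CDC37L1 1.69-fold, whereas FKBP5, of the glucocorticoid receptor complex, fell 2.04-fold and the phosphatase gene PPP5C 1.53-fold. Of 15 partners of TRiC and prefoldin and tubulin cofactors, 6 were higher (40%) and 7 lower (46.7%), with a median of 0.03. PIH1D1 and TBCE were 1.88-fold and 1.84-fold higher, and TBCD and RUVBL1 1.99-fold and 1.62-fold lower. Of 12 mitochondrial helpers and quality control proteases, 3 were higher (25%), 4 lower (33.3%) and 5 not called (median -0.01). HSCB, a co-chaperone for iron-sulfur cluster transfer, rose 2.29-fold and the protease gene HTRA2 1.43-fold. CLPB, a disaggregase of the intermembrane space, fell 2.04-fold, and GRPEL1, the exchange factor of HSPA9, 1.34-fold, opposite to HSPA9 itself.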

How the data were processed

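RNA was sequenced in 6 libraries. The submitters' processing notes list edgeR, featureCounts, HISAT2 and FastQC 0.11.5 with the build hg38, without the role of each. Annotation, strand handling and the treatment of reads matching several genes: not given in the sources used here. FPKM per gene symbol, with 2 decimals, were deposited by the authors. They were taken as relative to each library's total by the usual meaning of FPKM, and the scaling used was not checked. Absolute depth is unknown, and relative depth came from the most common ratio between values from 0.12 to 1 FPKM in each pair of libraries. Groups and replicate numbers came from the titles. Genes averaging 1 FPKM or more over the 6 libraries were tested as deposited, on log2(FPKM + 1), by limma 3.58.1 (R 4.3.3), with treatment as the only term, an intensity trend and Benjamini-Hochberg adjustment over all tested genes; a gene is called at an adjusted p under 0.05. The log2 scale with a pseudocount of 1 understates low genes, so each fold given is the ratio of the group means in FPKM. The fit was checked on simulated data of 11331 genes, with 50 genes changed at each fold. It recovered 26% of them at 1.2-fold, 80% at 1.5-fold and 98% at 2-fold, and 1.95% of calls were false. With so few genes changed, it cannot check scaling in data where 75.9% of genes were called. The members, lists and promoter motifs were chosen with earlier results of these data known, so no list was tested as a set. Library values are given for the largest rise, the largest fall and the most abundant member of each role, and for further members chosen after their values were seen; from each related list up to 2 called genes a direction with at least 5 FPKM are named, except 1 that is not reported here. Positions, exon overlaps, pseudogene names and transcripts came from GENCODE 29 (GRCh38), and promoter windows from RefSeq (GRCh38.p14). Alternatives were the pseudocount, the filter, 3 rescalings, a replicate block, no intensity trend, a test against a 1.2-fold change (treat) and each library left out; the sum of HSPA1A and HSPA1B and the split by mean level were added after seeing the data.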

Additional observations from a re-analysis of the deposited data

How the results depend on the processing

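Over 16 alternatives, 28 of the 46 tested members kept both their direction and their side of the threshold wherever they were tested, and 39 kept their direction. The members called higher numbered 12 to 17 and those called lower 16 to 26. The smallest of both counts came from the test against a 1.2-fold change, which called 3595 of all tested genes higher and 2135 lower, against 5411 and 3378. The replicate numbers did not pair the libraries (deviations of same-numbered libraries correlated at 0.0305, 0.0473 and -0.00207); with a replicate block 5351 genes were higher and 3355 lower, and 16 members were higher and 21 lower, HSPA4 losing its call. Leaving out each library in turn gave 5134 to 5232 higher and 3197 to 3283 lower over all genes, and 15 to 16 and 21 to 22 among the members. Each member that changed sign was uncalled or lost its call where it did. With median-ratio rescaling the log2 changes of BAG1, BAG4, BAG5 and CDC37 were -0.080, -0.061, -0.040 and -0.0068. With upper-quartile rescaling BAG1 was at -0.0082. With quantile normalization BAG4, BAG5, HSPA12A and PFDN4 were at -0.075, -0.018, -0.0060 and 0.014. Leaving out 1 library, PFDN1 ranged from -0.048 to 0.022, 0.0044 among them, and PFDN4 from -0.061 to 0.031, 0.020 and 0.0015 among them. TGM2 was at -0.15 (limma adjusted p = 0.00879, called lower), -0.074 and -0.085 under the 3 rescalings. The cause was not tested. Among the related lists, the 1.2-fold test gave 3 higher and 2 lower for the TRiC and prefoldin partners, 4 lower for the co-chaperones, 2 lower for the mitochondrial genes and 1 lower for the heat shock factor targets, where quantile normalization gave 1 too. The other family members had 4 higher with no expression filter, and 1 at a mean of at least 5 FPKM or without the second GK921 library. HSPA6, HSPA2, HSPA1L and CRYAB had the lowest DMSO levels of the members; read totals are unknown, so no depth limit is given.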
